A study of Mus musculus with 6 samples.

Results

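The genes described here are 10 adipokines and adipocyte markers measured in mouse gastrocnemius muscle: Lep, Adipoq, Retn, Rbp4, Sncg, Trarg1, Slc36a2, Car3, Fabp4 and Pparg. They were chosen with earlier results of these data known. Shares of all genes set beside the member counts below are therefore a description, not a test of the set. The genes were matched by symbol in the array annotation, where they had 16 probe sets. They are 10 of the 18193 genes with a probe set of a single symbol. Car3 and Fabp4 had 4 probe sets each and the other members 1 each. All 10 lay above the signal filter, a mean log2 signal over the median of all non-control probe sets. For Car3 and Fabp4 the probe set with the highest mean was used, and the others are given as a check.

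RNA of gastrocnemius, a mixed calf muscle, came from male C57BL/6J mice that ate one of 3 diets for 15 weeks from 6 weeks of age. HF+SFC+ALA stood for the HF diet plus 0.023% by weight of sodium ferrous citrate (SFC), an iron salt, and 0.2% by weight of 5-aminolevulinic acid phosphate (ALA), a heme precursor. The HF diet held 60 kcal% fat and the Control diet 10 kcal% fat. Muscle was taken after 24 h or 4 h without food, which gave 6 groups, and RNA was pooled within a group and run on 1 array each. The sources used here do not say how many animals a pool held, and the age in the labels, 21 months, differs from the one that the feeding schedule gives. No group had a replicate. The p-values below therefore set differences only against a spread between pools that diet and fasting time leave unexplained. Its estimate joins 2 residual degrees of freedom of the gene with 7.27 prior ones taken from the other tested genes by their signal. That spread may be technical or come from the animals pooled. It also holds any effect of diet that differs between the fasting times. Whether a diet acts differently at 24 h and at 4 h could not be tested.

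White adipocytes store triglyceride and secrete hormones. Leptin (Lep) signals the size of fat stores to the brain, adiponectin (Adipoq) acts on muscle and liver through its receptors, resistin (Retn) is made by adipocytes in mice, and retinol-binding protein 4 (Rbp4) carries vitamin A in blood. Muscle holds adipocytes between its fibres and next to its fascia, and a dissected muscle can carry some of them. In pooled tissue, fewer cells of a type and less RNA per cell cannot be told apart.

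The 250 bases before the start of Lep, Adipoq and Sncg are shown because these 3 genes passed the test between HF and Control. They are given 5′ to 3′ on the gene's strand, from RefSeq for GRCm38.p6, where 6 of the 10 members had an entry. Capitals mark matches to the C/EBP letters TTGCNNAA, the TATA letters TATAA and the CCAAT letters, searched on both strands.
Lep, chr6:29059971-29060220, plus strand: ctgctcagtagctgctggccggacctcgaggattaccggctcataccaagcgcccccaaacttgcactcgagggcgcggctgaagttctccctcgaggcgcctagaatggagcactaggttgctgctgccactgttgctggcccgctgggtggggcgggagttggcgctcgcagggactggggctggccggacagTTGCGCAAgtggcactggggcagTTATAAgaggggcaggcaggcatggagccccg
Adipoq, chr16:23146286-23146535, plus strand: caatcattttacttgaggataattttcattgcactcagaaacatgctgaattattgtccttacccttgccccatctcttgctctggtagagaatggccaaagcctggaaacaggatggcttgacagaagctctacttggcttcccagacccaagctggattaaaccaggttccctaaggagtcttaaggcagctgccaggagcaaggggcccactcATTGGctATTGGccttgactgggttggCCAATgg
Sncg, chr14:34374670-34374919, minus strand: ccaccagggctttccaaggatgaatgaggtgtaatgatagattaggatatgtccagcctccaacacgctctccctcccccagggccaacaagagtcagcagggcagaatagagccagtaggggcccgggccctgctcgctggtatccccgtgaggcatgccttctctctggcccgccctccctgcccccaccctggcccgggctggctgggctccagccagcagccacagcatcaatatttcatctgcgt

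The Lep window held TTGCGCAA, a match that begins 55 bases before the start, and TATAA 31 bases before it, which overlaps a match of the same letters on the other strand. The Adipoq window held 3 CCAAT matches, which begin 34, 27 and 7 bases before the start. The Sncg window held no match to any of these. Of 32851 upstream windows of the same length, 9.56% held the C/EBP letters, 22.8% TATAA and 33.8% CCAAT. PPAR receptors bind a repeat of the hexamer AGGTCA, which lay in 14.0% of windows. Among the members it lay only in 2 of the 3 entries of Pparg, the receptor gene itself. The direct repeat of this site with 1 base between lay in 11 of all windows and in none of the 9 member entries. A match is a string of letters and was not tested for binding.

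The arrays carried the marks of skeletal muscle in every pool. The 8 muscle identity genes, among them Acta1, Ckm and Ttn, summed to signals between 289128 and 334166, and none of the 8 passed the test in any diet or fasting comparison (limma; 0 at an unadjusted p under 0.05 in HF against Control and in 24 h against 4 h fasting). Array medians ran from 63.0 to 69.5. The ratio of 3′ to 5′ actin control signal, a sign of RNA integrity, was 1.22 and 1.21 in the HF+SFC+ALA pools, 1.15 and 1.52 in the HF pools and 1.08 and 1.09 in the Control pools, at 24 h and 4 h. The HF pool at 4 h had the highest ratio of the 6, and the part of RNA integrity in the results below was not tested.

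Lep lies at chr6:29060221-29073876 (GRCm38.p6). At 24 h its signal was 70.4 in HF+SFC+ALA, 366 in HF and 19.5 in Control. At 4 h it was 195 in HF+SFC+ALA, 592 in HF and 45.8 in Control. The HF pool was highest and the Control pool lowest at both times, and the Control value at 24 h lay under the floor of 26.4, below which signals were set to that value. Adipoq, at chr16:23146536-23157968, had 796 in HF+SFC+ALA, 4280 in HF and 577 in Control at 24 h. Its 4 h signals were 1941 in HF+SFC+ALA, 4637 in HF and 901 in Control. The diets stood in the same order as for Lep, and both HF pools were far above the other 4.

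Retn, at chr8:3655770-3659818, had 121 in HF+SFC+ALA, 287 in HF and 23.6 in Control at 24 h, the last under the floor. After 4 h the signals were 267 in HF+SFC+ALA, 386 in HF and 207 in Control. Again HF was highest at both times, but the Control pools lay far apart from each other. Rbp4, at chr19:38116620-38125321, had 71.9 in HF+SFC+ALA, 292 in HF and 77.9 in Control at 24 h. It had 73.6 in HF+SFC+ALA, 225 in HF and 105 in Control at 4 h. Here the HF+SFC+ALA pools were the lowest, and both HF pools stood above all 4 others without overlap.

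**Figure D1:**
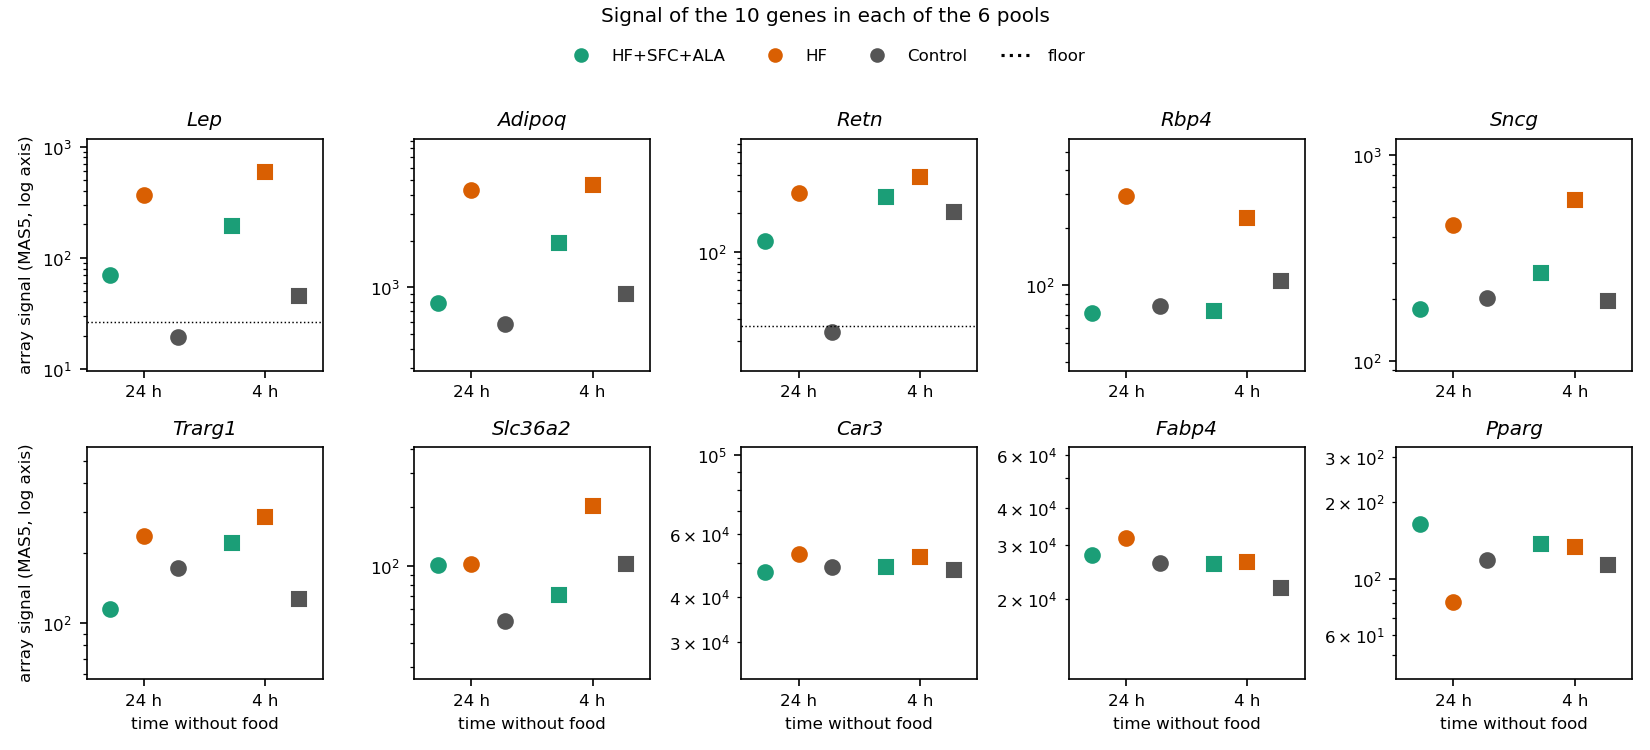
Signal of each of the 10 genes in each pool, on a log axis, with the diets from left to right as HF+SFC+ALA, HF and Control; circles are 24 h and squares 4 h of fasting, and the dotted line is the floor of 26.4. The HF pools of Adipoq, 4280 and 4637, stand above the other 4, which run from 577 to 1941.

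Sncg encodes gamma-synuclein, a small protein found in neurons and in white adipocytes, and lies at chr14:34370274-34374669. At 24 h it had 180 in HF+SFC+ALA, 456 in HF and 203 in Control, and at 4 h 266 in HF+SFC+ALA, 601 in HF and 195 in Control. The HF pools were above all others, and the HF+SFC+ALA pools lay below Control at 24 h and above it at 4 h. Trarg1, at chr11:76679873-76698664, encodes a regulator of GLUT4 trafficking in adipocytes. Its signals were 115 in HF+SFC+ALA, 238 in HF and 172 in Control at 24 h, and 221 in HF+SFC+ALA, 287 in HF and 127 in Control at 4 h. Slc36a2, an amino acid transporter used as a surface marker of brown and beige adipocytes, lies at chr11:55158468-55185099. It had 101 in HF+SFC+ALA, 102 in HF and 52.3 in Control at 24 h, and 70.9 in HF+SFC+ALA, 205 in HF and 103 in Control at 4 h. For Slc36a2 the groups overlapped: only the HF pool at 4 h stood apart from the rest.

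Car3, carbonic anhydrase 3, is abundant in adipocytes and in slow muscle fibres, and lies at chr3:14863538-14872381. At 24 h it had 47184 in HF+SFC+ALA, 52717 in HF and 48784 in Control, and at 4 h 48485 in HF+SFC+ALA, 51953 in HF and 47691 in Control. The HF pools were the highest, within a narrow range. The brightest probe set of any kind on these arrays read 57775 to 64863, so Car3 was near the top of the scale, and whether that narrowed its differences was not tested. Fabp4, the fatty acid carrier of adipocytes, which capillary endothelium and macrophages also make, lies at chr3:10204342-10208616. It had 27979 in HF+SFC+ALA, 31773 in HF and 26207 in Control at 24 h, and 26109 in HF+SFC+ALA, 26497 in HF and 21626 in Control at 4 h. Pparg, the nuclear receptor that drives adipocyte differentiation, lies at chr6:115360879-115490404. Its signals were 164 in HF+SFC+ALA, 80.8 in HF and 119 in Control at 24 h, and 137 in HF+SFC+ALA, 133 in HF and 113 in Control at 4 h. By the probe sets used, HF had the highest signal of the 3 diets at both times for 9 of the 10 genes, against 12.9% of all genes. Pparg was the exception, and its lowest pool was HF at 24 h. No other probe set of Car3 had HF highest at both times, and of the others of Fabp4 only 1425809_at did.

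Lep, Adipoq and Sncg rose in HF muscle relative to Control. In an additive fit of diet and fasting time over the 6 pools with limma, Benjamini-Hochberg adjusted over 11526 genes, Lep was higher by 3.74 ± 0.30 on the log2 scale (SE; adjusted p = 0.00275). The Control pool at 24 h lay under the floor, so this fitted value depends on where the floor is set, and with a pseudocount in its place it was 3.10. Adipoq was higher by 2.63 ± 0.21, or 6.18-fold (limma, adjusted p = 0.00275), and Sncg by 1.40 ± 0.20, or 2.64-fold (limma, adjusted p = 0.0166). These 3 of 10 compare with 0.564% of all genes called higher. Among them, Lep had passed the signal filter through its pools other than Control. None of the 10 was called lower, against 0.321% of all genes. The differences held in both pairs of pools. Lep was at least 13.9-fold higher at 24 h and 12.9-fold at 4 h, Adipoq 7.42-fold and 5.15-fold, and Sncg 2.25-fold and 3.08-fold.

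The other 7 genes did not pass the test between HF and Control. Rbp4 differed by 1.503 ± 0.301 on the log2 scale (limma, adjusted p = 0.0613), with 3.75-fold at 24 h and 2.14-fold at 4 h. Retn differed by 2.17 ± 0.49 (limma, adjusted p = 0.0896), at least 10.9-fold at 24 h and 1.86-fold at 4 h. Thus Retn had a far larger difference in one pair of pools than in the other. Trarg1 had a log2 difference of 0.82 ± 0.31, Slc36a2 0.98 ± 0.42 and Fabp4 0.29 ± 0.08, with adjusted p-values of 0.273, 0.324 and 0.162 in the limma fit. Car3 (0.12 ± 0.08) and Pparg (-0.16 ± 0.32) were the closest to 0. Across the 10 genes the median log2 difference was 1.19 and 9 were positive, against a median of -0.00020 over all genes, of which 49.97% were positive. At an unadjusted p under 0.05, 8 of 10 were higher, against 7.36% of all genes, and 6 of 10 were at least 1.5-fold higher at both times, against 1.56%.

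The 3 calls depended on settings of the test. Without the signal filter, or without the intensity trend in eBayes, 0 of 10 members and 0 of all genes passed in limma (1993 and 1348 genes had an unadjusted p under 0.05), and with the mean over probe sets only Lep did. Over those and the other alternatives, pools left out apart, the adjusted p of Lep ran from 0.00256 to 0.346, that of Adipoq from 0.00256 to 0.359 and that of Sncg from 0.0119 to 0.360 (limma). Leaving out 1 pool, the fitted difference ran from 3.52 to 3.96 for Lep, from 2.20 to 3.05 for Adipoq and from 1.13 to 1.67 for Sncg. That of Retn ran from 1.08 to 3.26, that of Rbp4 from 1.20 to 1.81 and that of Trarg1 from 0.30 to 1.35. A fit on 5 pools keeps 1 residual degree of freedom. It leaves 1 pool in a diet, which the model fits exactly, so the spread of that diet is not measured. Calls gained or lost in such fits are not read here.

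**Figure D2:**
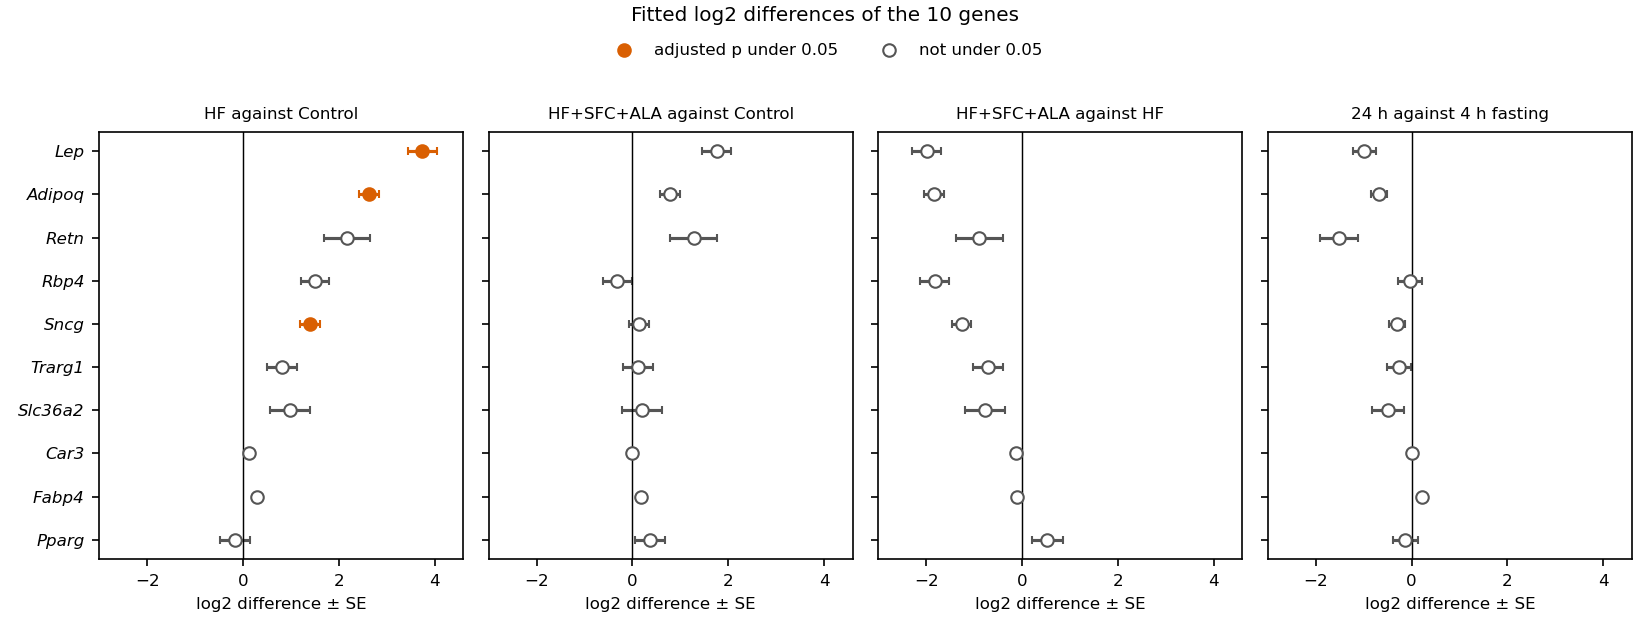
Fitted log2 differences of the 10 genes, with bars for the SE. Panels show HF against Control, HF+SFC+ALA against Control, HF+SFC+ALA against HF, and 24 h against 4 h fasting. Filled orange points have an adjusted p under 0.05. Filled points appear only for Lep (3.74), Adipoq (2.63) and Sncg (1.40) in HF against Control.

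With SFC and ALA added to the high-fat diet, the signals of Lep, Adipoq, Rbp4 and Sncg were at least 1.5-fold lower than in HF at both fasting times, but no member passed the adjusted test. Adipoq was 5.38-fold lower at 24 h and 2.39-fold lower at 4 h, with a fitted log2 difference of -1.84 (95% interval -2.32 to -1.36; limma, adjusted p = 0.0562). Lep was 5.20-fold and 3.03-fold lower, with a fitted difference of -1.99 (95% interval -2.66 to -1.32; limma, adjusted p = 0.0775). For Rbp4 the pairs gave 4.07-fold and 3.06-fold, with a fit of -1.82 (95% interval -2.50 to -1.14; limma, adjusted p = 0.127). For Sncg they gave 2.54-fold and 2.26-fold, with a fit of -1.26 (95% interval -1.71 to -0.81; limma, adjusted p = 0.111). These 4 of 10 compare with 0.633% of all genes that were at least 1.5-fold lower at both times. Called by limma were 0% of all genes in this comparison, and 585 genes had an unadjusted p under 0.05.

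Retn was 2.38-fold lower in HF+SFC+ALA than in HF at 24 h and 1.45-fold lower at 4 h, and Trarg1 2.08-fold and 1.30-fold. Slc36a2 had a difference of -0.02 on the log2 scale at 24 h and was 2.89-fold lower at 4 h. Car3 was within 0.16 and Fabp4 within 0.18 on the log2 scale at both times. Pparg ran the other way at 24 h, where it was 2.03-fold higher in HF+SFC+ALA, and at 4 h the difference was 0.04. The median log2 difference of the 10 was -0.83, with 9 negative, and that of all genes -0.0049, with 48.7% positive. At an unadjusted p under 0.05, 5 of 10 were lower, against 2.87% of all genes.

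Leaving out single pools changed the calls in HF+SFC+ALA against HF, but not always the differences. Without either Control pool the fitted differences stayed at -1.84 for Adipoq, -1.99 for Lep, -1.82 for Rbp4 and -1.26 for Sncg. Control pools do not enter these differences, so only the estimate of the spread, and with it the p-values, changed. Calls gained in this way add nothing on the differences themselves. Adipoq differed by -2.29 without the HF+SFC+ALA pool at 4 h and by -2.27 without the HF pool at 4 h. With a filter at the 65th percentile of signal, Adipoq alone passed (limma, adjusted p = 0.0381). Over all settings other than leaving out a pool, the adjusted p of Adipoq here ran from 0.0381 to 0.762 (limma). The fits without 1 pool keep 1 residual degree of freedom, as above.

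HF+SFC+ALA against Control gave no call among the members either, against 0.0347% of all genes called higher and none lower. Lep was at least 2.67-fold higher at 24 h and 4.26-fold higher at 4 h, with a fitted log2 difference of 1.75 ± 0.30 (limma, adjusted p = 0.133). It was the only member at least 1.5-fold higher at both times, against 1.06% of all genes. Adipoq was 1.38-fold higher at 24 h and 2.16-fold higher at 4 h, with a fit of 0.79 ± 0.21 (limma, adjusted p = 0.241). Retn was at least 4.57-fold higher at 24 h and 1.29-fold higher at 4 h, with a fit of 1.28 ± 0.49 (limma, adjusted p = 0.334), which moved to 0.19 without the Control pool at 24 h and to 2.37 without that at 4 h. Rbp4 (-0.31), Sncg (0.14) and Trarg1 (0.11) had fitted log2 differences near 0, with 95% intervals of -0.99 to 0.36, -0.32 to 0.59 and -0.60 to 0.81. At an unadjusted p under 0.05, 4 of 10 were higher, against 5.92% of all genes, and the median over the 10 was 0.19. Without the Control pool at 24 h the fitted difference was 0.82 for Adipoq and 1.90 for Lep. Without that at 4 h these were 0.76 and 1.61. The difference of Adipoq stayed at 0.79 without either HF pool, since HF pools do not enter it.

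The 3 diet comparisons share pools: the HF pools stand in both comparisons with HF, and the Control pools in both with Control. A high HF value therefore raises HF against Control and lowers HF+SFC+ALA against HF at once. Both HF pools were above all 4 other pools for 7 of 10 members, against 7.37% of all genes. Car3 counted among the 7 by the probe set used, and no other Car3 probe set had this pattern. In 1460256_at, for example, the 24 h signal was 25422 in HF+SFC+ALA and 24107 in HF. The order HF, HF+SFC+ALA, Control from high to low at both times was found for Lep, Adipoq, Retn and Fabp4. These are 4 of 10, against 5.18% of all genes. For Fabp4 the other bright probe set, 1451263_a_at, had 15935 in HF+SFC+ALA and 13286 in HF at 24 h. Of its dim probe sets, 1425809_at kept the order and 1424155_at did not.

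**Figure D3:**
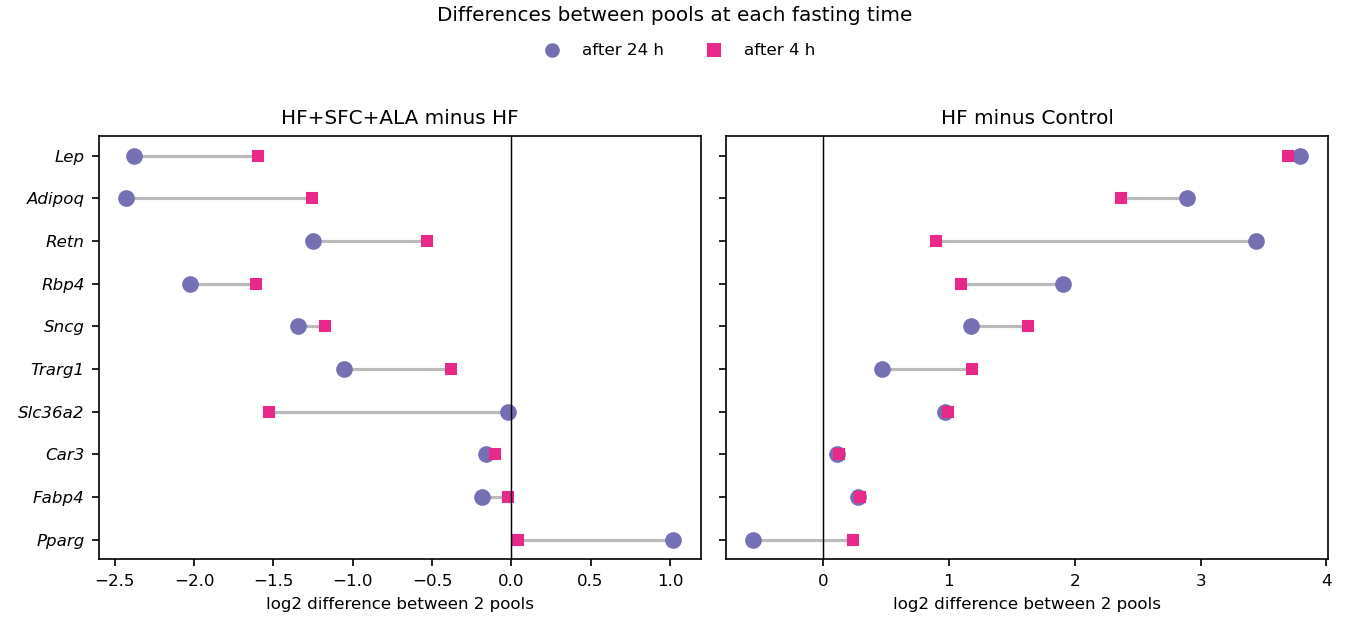
Log2 differences of the 10 genes in each pair of pools of the same fasting time, with HF+SFC+ALA minus HF on the left and HF minus Control on the right. Lep lies at -2.38 and -1.60 on the left and at 3.79 and 3.69 on the right, while Pparg lies at 1.02 and 0.04 on the left and at -0.55 and 0.23 on the right.

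After 24 h of fasting, Lep, Adipoq and Retn had lower signals than after 4 h in all 3 diets, but no member passed the test. Lep was lower by 1.47 on the log2 scale in HF+SFC+ALA, 0.69 in HF and at least 0.80 in Control, where the 24 h pool lay under the floor, with a fitted log2 difference of -0.99 ± 0.24 (limma, adjusted p = 0.0735). Adipoq had differences of -1.29 in HF+SFC+ALA, -0.12 in HF and -0.64 in Control, and a fit of -0.68 ± 0.17 (limma, adjusted p = 0.0838). Retn had -1.15 in HF+SFC+ALA, -0.43 in HF and at least 7.85-fold lower signal in Control, with a fit of -1.52 ± 0.40 (limma, adjusted p = 0.0893). The 3 of 10 that were lower in every diet compare with 18.3% of all genes, and the adjusted test called 0.92% of all genes lower and 1.49% higher. Lep was the only member at least 1.5-fold lower in all 3 diets, against 0.243% of all genes. By the probe sets used, Fabp4 was the only member higher at 24 h in all 3 diets, against 21% of all genes. Its log2 differences were 0.10 in HF+SFC+ALA, 0.26 in HF and 0.28 in Control. The other bright probe set of Fabp4, 1451263_a_at, gave 0.18 in HF+SFC+ALA, -0.45 in HF and -0.08 in Control. Its dim probe sets 1424155_at and 1425809_at were higher at 24 h in all 3 diets.

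Leaving out single pools moved the fasting differences, and calls in those fits are not read here either. The fitted differences without 1 pool ran from -1.13 to -0.75 for Lep, from -0.96 to -0.38 for Adipoq and from -2.06 to -0.79 for Retn. Rbp4 had a fitted difference of -0.03 (95% interval -0.58 to 0.52), Pparg -0.13 (-0.71 to 0.46) and Trarg1 -0.26 (-0.83 to 0.32). That of Car3 was 0.0048 with the probe set used and 0.69 with the mean over its probe sets, and neither passed. At an unadjusted p under 0.05, 3 of 10 members were lower, against 7.86% of all genes, and 1 was higher, against 9.83%.

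The probe sets of Car3 did not move alike. In HF minus Control the one used differed by 0.11 at 24 h and 0.12 at 4 h on the log2 scale, and probe set 1460256_at by 0.47 and 0.30. Probe set 1430584_s_at had 685 in HF+SFC+ALA, 1010 in HF and 233 in Control at 24 h, and 288 in HF+SFC+ALA, 219 in HF and 257 in Control at 4 h. It was thus 4.34-fold higher in HF at 24 h and slightly lower at 4 h. Probe set 1453588_at gave 1.27 and 0.65 for HF minus Control, and was higher at 24 h than at 4 h by 1.26 in HF+SFC+ALA, 1.95 in HF and 1.32 in Control. For Fabp4, 1451263_a_at gave 0.39 and 0.75 for HF minus Control, 1425809_at 0.24 and 0.30, and 1424155_at 0.46 and -0.35. In HF minus Control the 2 bright probe sets of Fabp4 had the same direction at both times, and one of its dim ones did not.

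**Figure D4:**
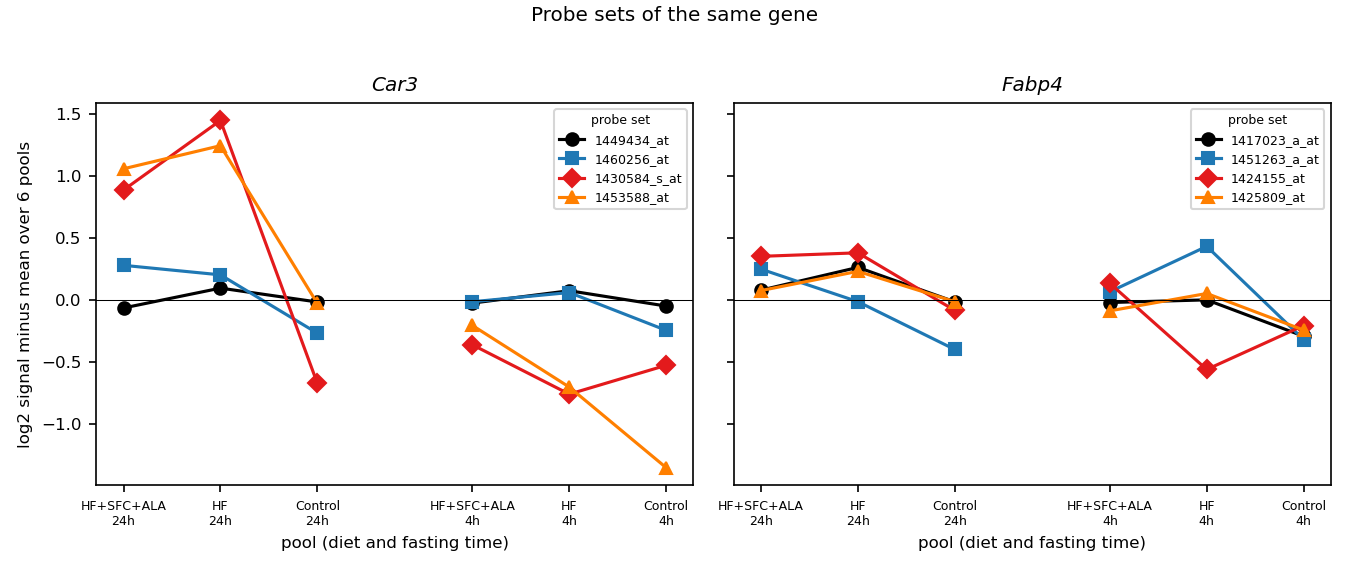
Log2 signal of each of the 4 probe sets of Car3 and of Fabp4 in the 6 pools, minus that probe set's mean over the pools. The dim Car3 probe sets 1430584_s_at and 1453588_at spread widely, while the one used, 1449434_at, stays between 47184 and 52717 in signal.

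Other adipocyte genes were taken from a list of 25, of which 21 were matched and 19 lay above the filter; Plin1, Cfd, Adrb3 and Acsl1 were not analysed here. In HF against Control, 5 of the 19 passed the test as higher, against 0.564% of all genes, and 0 as lower, against 0.321%. Their median log2 difference was 0.52, with 14 positive and 5 negative, where 49.97% of all genes were positive. At an unadjusted p under 0.05, 10 were higher, against 7.36% of all genes, and 1 was lower (limma). These calls ended without the signal filter or without the intensity trend, where 0 of all genes passed, and with the mean over probe sets, where only Lep did. Hp, encoding haptoglobin, a plasma protein that adipocytes and liver secrete, had 115 in HF+SFC+ALA, 1921 in HF and 114 in Control at 24 h, and 783 in HF+SFC+ALA, 2940 in HF and 317 in Control at 4 h. It rose by 3.65 ± 0.38 in HF (limma, adjusted p = 0.00652). Cidec, a lipid droplet fusion protein, rose by 1.91 ± 0.22 (limma, adjusted p = 0.00741), and G0s2, an inhibitor of the lipase ATGL, by 1.62 ± 0.17 (limma, adjusted p = 0.00652). Mest (1.29 ± 0.23) and the natriuretic peptide clearance receptor Npr3 (1.19 ± 0.19) rose as well, with adjusted p-values of 0.0383 and 0.0254 in limma. Nnat missed the threshold at 1.51 ± 0.29 (limma, adjusted p = 0.0537). Among the lipases, Lpl had a log2 difference of -0.0055 and Lipe -0.13, and Pnpla2, the gene of ATGL, -0.31. Which cells made the RNA of the genes of this list, called or not, was not tested.

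Against HF, the HF+SFC+ALA pools were lower in Hp by a fitted 2.99 on the log2 scale and in Cidec by 1.68 (limma, adjusted p = 0.0562 each), which did not pass. The difference of G0s2 from HF was -0.13, and it was the only gene of the lists that rose in HF+SFC+ALA against Control, by 1.497 ± 0.167 (limma, adjusted p = 0.0278). This call ended with quantile normalization, without the filter, with the mean over probe sets and without the trend. Under each of these 0 genes passed in this comparison (limma, with 1076 to 1770 genes at an unadjusted p under 0.05). G0s2 had 822 in HF+SFC+ALA, 1166 in HF and 336 in Control at 24 h, and 1517 in HF+SFC+ALA, 1276 in HF and 466 in Control at 4 h. At 24 h of fasting Pnpla2 was higher than at 4 h by 0.49 ± 0.08 (limma, adjusted p = 0.0213), as was Cd36, a fatty acid transporter, by 0.39 ± 0.08 (limma, adjusted p = 0.0486), and Hp was lower by 1.62 ± 0.31 (limma, adjusted p = 0.0337).

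The transcription factors and synthesis enzymes of adipocytes showed few calls. None of 15 adipogenic transcription factors passed in HF against Control (limma; 3 were lower at an unadjusted p under 0.05), where their median was -0.13. Cebpd had the largest difference among them, -1.35 ± 0.28 (limma, adjusted p = 0.0676), with its highest signal, 6148, in Control at 24 h. Klf4 was higher at 24 h than at 4 h by 0.44 ± 0.09 (limma, adjusted p = 0.0497). Of 13 lipogenesis genes, Dgat2, which makes triglyceride, rose in HF by 0.55 ± 0.09 (limma, adjusted p = 0.0329), and the phosphatidate phosphatase Lpin1 fell by 0.44 ± 0.08 (limma, adjusted p = 0.0346). Dgat2 was also higher after 24 h than after 4 h by 0.56 ± 0.08 (limma, adjusted p = 0.00978), and the desaturase Scd1 lower by 0.83 ± 0.16 (limma, adjusted p = 0.0390). The receptors of the adipokines gave no call in any comparison among 6 tested. Adipor1 (-0.13), Adipor2 (-0.24), Lepr (0.16) and Cap1 (0.54), a binding partner reported for human resistin, had the given log2 differences in HF against Control.

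Markers of other cell types that the tissue holds were set beside these genes. All 11 tested progenitor and fibroblast markers had positive log2 differences in HF against Control, where 49.97% of all genes were positive. Their median was 0.34, and the matrix gene Dpt rose by 0.53 ± 0.10 (limma, adjusted p = 0.0392). All 11 tested macrophage markers were positive as well, with a median of 0.62 and no call. At an unadjusted p under 0.05, 5 were higher (limma), against 7.36% of all genes. In HF+SFC+ALA against Control all 11 were also positive, against 48.3% of all genes, with a median of 0.46 and no call. There 5 were higher at an unadjusted p under 0.05 (limma), against 5.92% of all genes. The signals of all 13 matched macrophage markers summed to 3990 and 5127 in HF+SFC+ALA, 5468 and 4624 in HF and 3145 and 3449 in Control, at 24 h and 4 h. Macrophages also make Fabp4, and their part in the results was not tested. The 4 tested Schwann cell and nerve markers had medians of 0.33 in HF against Control and -0.53 in HF+SFC+ALA against HF, with no call. The summed signals of all 7 matched nerve markers were 2056 and 1953 in HF+SFC+ALA, 2765 and 3042 in HF and 2418 and 2419 in Control. Sncg is also a neuronal gene, and the part of nerve in its result was not tested. The 10 endothelial markers had a median of -0.04 and no call, with sums between 9978 and 10849.

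The brown adipocyte markers gave no call. Ucp1, the defining brown fat gene, Elovl3 and Lhx8 lay below the filter, and none of the 6 tested was called in any comparison (limma; 1 was higher and 1 lower in HF against Control at an unadjusted p under 0.05). Slow fibre genes, of interest because slow fibres make Car3, summed to 81728 and 111754 in HF+SFC+ALA, 111995 and 74080 in HF and 85545 and 101870 in Control, at 24 h and 4 h. The HF pool at 24 h had the highest and the HF pool at 4 h the lowest of these sums, and the Car3 signals of these pools were 52717 at 24 h and 51953 at 4 h. The part of slow fibres in the Car3 result was not tested. None of 9 slow or 10 fast fibre genes was called in HF against Control, with medians of -0.08 and -0.06. Of 6 liver plasma protein genes, 4 were matched and 1, Alb, lay above the filter. Their summed signal of 80.2 to 144 was low in every pool; liver also makes Hp and Rbp4.

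**Figure D5:**
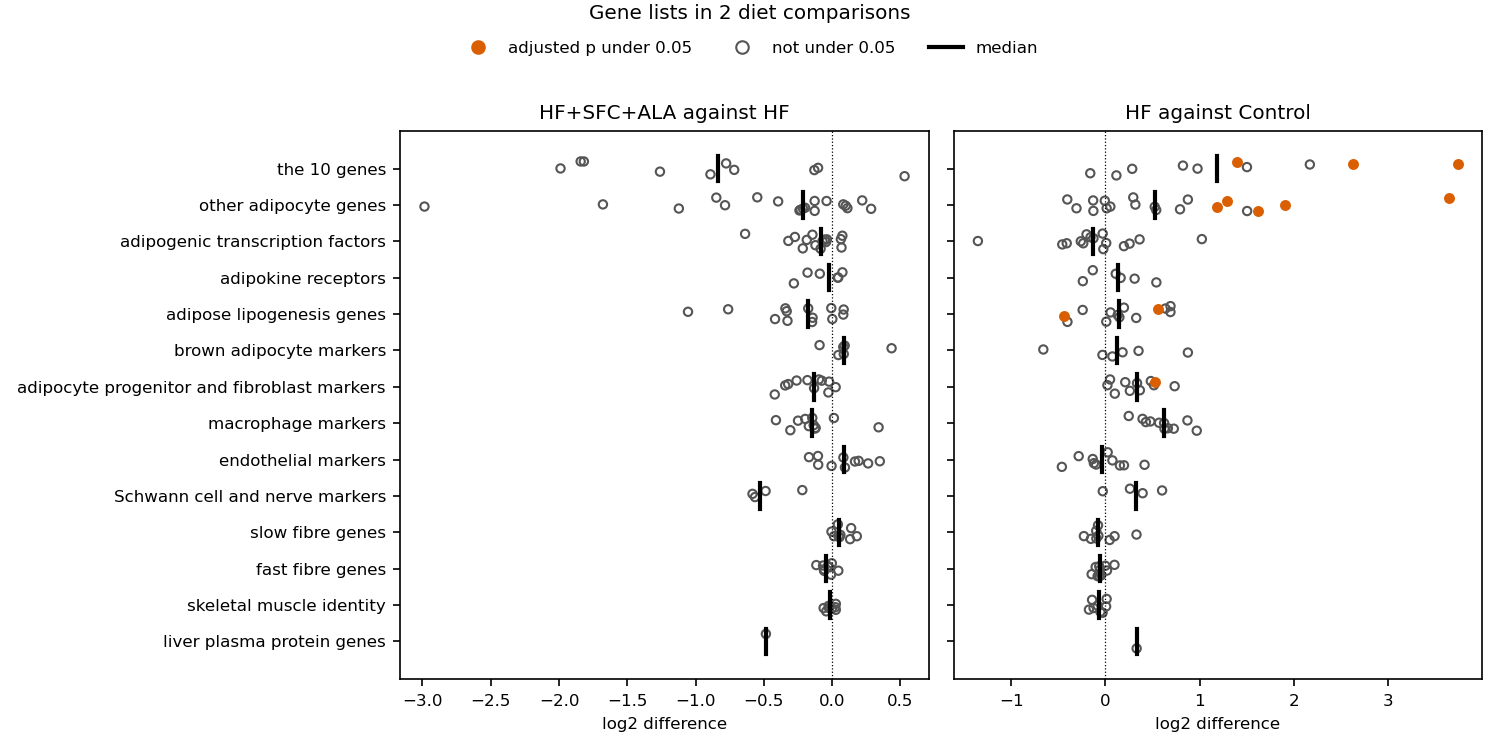
Fitted log2 differences of the members and of each gene list, with HF+SFC+ALA against HF on the left and HF against Control on the right; each point is a gene and each bar a list's median. The member median is -0.83 on the left and 1.19 on the right, and the medians of endothelial, fast fibre and muscle identity genes in HF against Control are -0.04, -0.06 and -0.07.

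Over the 6 pools, the genes whose log2 signals followed Adipoq most closely, among 1549 genes with a range of at least 1, were Hp (r = 0.979), Lep (0.978), Scube2 (0.978), Anxa1 (0.975), Rab31 (0.975) and Gnai1 (0.970). The median r with Adipoq over these genes was 0.17, and 37 genes exceeded 0.9. For Lep they were Anxa1 (0.999), Galnt10 (0.996), Cd1d1 (0.979), Aoc3 (0.978), Adipoq (0.978) and Mybph (0.978), and 51 genes exceeded 0.9. For Car3, by the probe set used, whose own range was narrow, they were Aldh1a7 (0.979), Cacna1d (0.950), Lxn (0.943), Sncg (0.938), Rbp4 (0.934) and Dram1 (0.930). The other Car3 probe sets, which did not move alike, were not compared in this way. Among the members, Adipoq and Sncg had r = 0.952, Adipoq and Fabp4 0.48, and Adipoq and Pparg -0.40. These correlations rest on the same 6 arrays, with diet and fasting in every point, and are given as a description.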

How the data were processed

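The deposited values were intensity per probe set and array on a linear scale. The submitters' processing notes name MAS5, whose version and settings the sources used here do not state. Every array had a mean of 500.004 once 2% was trimmed at each end. Of 45037 non-control probe sets, 34945 had 1 symbol and 932 several; only those with 1 were named. The 30th percentile of signal (26.4) served as a floor before log2 (96 values in 92 tested genes), and 11526 genes with a mean log2 above the median (5.88) were tested.

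Diet and fasting time were fitted additively in limma 3.58.1 under R 4.3.3 (eBayes with trend, 2 residual and 7.27 prior degrees of freedom) and adjusted by Benjamini-Hochberg at 0.05. The fit was also run on simulated data with independent noise and no effect of fasting or pool. Such data cannot vouch for calls from pools without replicates. With 6 arrays, their number limits the precision. Fold sizes in pairs of pools have no test. Alternatives were quantile normalization, no filter or a stricter one, no floor, a pseudocount, the mean over probe sets, no trend, no diet term and leaving out each pool.

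The members and gene lists were chosen with earlier results of these data known. Named are the members, the called genes of each list (at most 6) or up to 4 with the largest difference, and the 6 genes most correlated with Adipoq, Lep and Car3; list genes named beside these were chosen after their values were seen.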

Additional observations from a re-analysis of the deposited data

Results flagged for a closer look

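Trarg1 differed in direction between fasting times in HF+SFC+ALA against Control. Its log2 difference was -0.59 at 24 h and 0.80 at 4 h, so it was at least 1.5-fold lower in the one pair of pools and at least 1.5-fold higher in the other. Each value is a difference of 2 single pools, and the difference between the fasting times was not tested. No group had enough pools to look for an outlying one.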

How the results depend on the processing

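No paired analysis was possible because each group was 1 pool and the labels carry no replicate numbers. Leaving out single pools apart, each member's log2 difference in each comparison was set beside its value under each alternative; direction and side of the threshold were kept in 257 such cases, the sign turned in 4, the call was lost in 8 and gained in 1. For HF against Control, 102 genes passed, against 0 without the filter (1993 at an unadjusted p under 0.05), 1 with the mean over probe sets and 0 without the trend (1348 unadjusted); 3 members passed, against 0, 1 and 0 under the same settings. The filter at the 65th percentile tested 5 members, Lep not among them, and called 2. For 24 h against 4 h fasting, 278 genes passed, against 0 without the filter (2026 unadjusted), 12 with the mean, 0 without the trend (1639 unadjusted) and 60 without the diet term. For HF+SFC+ALA against Control, 4 genes passed, against 0 with quantile normalization (1438 unadjusted), without the filter (1770), with the mean (1137) and without the trend (1076). For HF+SFC+ALA against HF, 0 genes passed (limma; 585 unadjusted), against 6 at the 65th percentile of signal, including 1 member, Adipoq. Leaving out 1 pool gave 47 to 592 genes for HF against Control, 59 to 455 for fasting, 0 to 435 for HF+SFC+ALA against Control and 0 to 109 against HF; member counts were 2 to 5, 0 to 3, 0 to 3 and 0 to 5. Signs turned for Car3 at 24 h against 4 h with quantile normalization (-0.022), for Car3 in HF+SFC+ALA against Control with quantile normalization (0.036) and the mean over probe sets (0.59), and for Fabp4 in HF+SFC+ALA against HF with that mean (0.0079). Without 1 pool, signs turned within -0.0091 to 0.027 (Car3), -0.32 to 0.17 (Pparg), -0.23 to 0.17 (Rbp4) and -0.61 to 0.086 (Trarg1) for fasting, within -0.60 to 0.28 (Pparg) for HF against Control, and within -0.045 to 0.021 (Car3), -0.54 to 0.95 (Slc36a2), -0.13 to 0.41 (Sncg) and -0.42 to 0.63 (Trarg1) for HF+SFC+ALA against Control. The cause was not tested. Lep and Retn were limited by signal, with Control at 24 h under the floor.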
